A study of Homo sapiens with 3 samples.

Results

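LEF1, TCF7, TCF7L1 and TCF7L2 encode the LEF/TCF transcription factors, and CTNNB1, AXIN1, AXIN2, APC, SFRP1 and NKD1 encode proteins that carry the Wnt signal to them or hold it back. All probe sets that the platform annotation pairs with 1 of these 10 symbols were taken, which gave 31 of 54675 probe sets, for 9 of 19775 genes. No probe set was named with TCF7, which was not analysed here. The probe sets were read in Rh-30, an established ARMS cell line with the PAX3-FOXO1 fusion gene, on 3 GeneChip Human Genome U133 Plus 2.0 arrays, 1 per condition. The conditions were siPF, an siRNA against the PAX3-FOXO1 fusion site, siB7-H3, an siRNA against B7-H3 (gene CD276), and siCont, a control siRNA. All 3 cultures were transfected by Lipofectamine RNAiMAX with 5 nM siRNA, and the deposit places RNA extraction 24 h later. Each target was hit by a single siRNA in 1 cell line. With 1 array per condition no replicate error and no test between conditions was available, so each difference given here lies between 2 arrays, and both knockdowns were compared with the same siCont array.

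In the canonical Wnt pathway, a destruction complex built on the scaffold AXIN1 or AXIN2 and on APC marks beta-catenin, the product of CTNNB1, for degradation. A Wnt ligand bound to a Frizzled and LRP5 or LRP6 receptor pair disables this complex, and beta-catenin then enters the nucleus and turns LEF/TCF proteins, which sit on DNA through an HMG box, into activators of transcription. AXIN2, NKD1 and LEF1 are themselves known target genes of the pathway in many tissues, and AXIN2 and NKD1 act back on it as inhibitors. In the embryo, Wnt signals take part in starting myogenesis in the somites.

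Every probe set has 1 linear intensity per array. The arrays share a common scale, with a mean of 500.1 once the top and bottom 2% of probe sets are set aside. Differences are between log2 intensities, so 1 stands for 2-fold. Where a gene had more than 1 probe set, its brightest by mean log2 intensity stood for it (the main probe set). A difference was read only if the brighter of both arrays was at or over that array's 60th percentile, which was 137 in siPF, 134 in siB7-H3 and 132 in siCont. This is called the level rule, and the percentile the limit. As a guide to the signal of silent genes, 46 genes of unrelated organs (pancreas and retina among them) were read. Their median intensities were 21.0 in siPF, 21.5 in siB7-H3 and 22.8 in siCont. Of these genes, 2 in siPF, 5 in siB7-H3 and 4 in siCont were at or over the limit. The highest intensities were 242, 281 and 256 on the same arrays. CYP3A4, among them, was past 2-fold higher in siB7-H3, at 1.03. Passing the rule thus does not show that a gene is expressed. FOXO1, the 3' partner in the fusion, had 249 in siPF, 650.0 in siB7-H3 and 678 in siCont, and CD276 had 1381 in siPF, 362 in siB7-H3 and 1486 in siCont. PAX3, the 5' partner in the fusion, had 329 in siPF, 398 in siB7-H3 and 381 in siCont, a difference of -0.21 in siPF. Of 7 measured markers of skeletal myogenic cells, 6 reached the limit on every array, MYF6 being the exception. None of the measured markers of leukocytes (3) or epithelium (3) reached it on any array. Of 3 endothelial markers, PECAM1 reached it, at 621 in siPF, 910.1 in siB7-H3 and 699 in siCont, whereas CDH5 and VWF were at most 22.3. Of the myogenic markers over the limit, the furthest from siCont was MYOG, the gene of myogenin, at 3386 in siPF, 1269 in siB7-H3 and 605 in siCont. Its part in the differences given below was not tested.

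For each measured LEF/TCF gene 1 window is shown, because the differences of LEF1, TCF7L1 and TCF7L2 are set side by side in what follows. Each window runs from 250 bases before to 50 bases after a transcription start in RefSeq (GRCh38.p14), 5' to 3' on the strand of the gene. Capitals mark CTTTG or its reverse complement CAAAG, the core of the LEF/TCF recognition motif, and the rest is in lower case. The LEF1 window lies at chr4:108166252-108166551 on the minus strand, that of TCF7L1 at chr2:85133142-85133441 on the plus strand and that of TCF7L2 at chr10:112949997-112950296 on the plus strand.
LEF1: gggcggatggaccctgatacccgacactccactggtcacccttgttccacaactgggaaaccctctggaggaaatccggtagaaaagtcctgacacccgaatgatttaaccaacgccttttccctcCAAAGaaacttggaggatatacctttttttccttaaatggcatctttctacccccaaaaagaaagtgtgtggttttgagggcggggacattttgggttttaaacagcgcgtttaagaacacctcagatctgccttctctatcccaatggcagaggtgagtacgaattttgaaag
TCF7L1: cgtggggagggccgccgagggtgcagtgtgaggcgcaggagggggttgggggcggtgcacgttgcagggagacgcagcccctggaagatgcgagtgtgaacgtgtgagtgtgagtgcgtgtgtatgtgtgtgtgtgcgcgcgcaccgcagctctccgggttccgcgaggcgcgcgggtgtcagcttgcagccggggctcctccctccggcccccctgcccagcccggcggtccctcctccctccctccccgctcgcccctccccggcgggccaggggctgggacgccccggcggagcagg
TCF7L2: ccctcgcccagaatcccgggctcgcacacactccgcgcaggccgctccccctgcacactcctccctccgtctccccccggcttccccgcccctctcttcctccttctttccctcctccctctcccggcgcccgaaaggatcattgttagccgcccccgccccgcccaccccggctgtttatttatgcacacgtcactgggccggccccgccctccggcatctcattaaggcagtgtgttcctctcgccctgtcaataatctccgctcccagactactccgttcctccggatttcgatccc
The LEF1 window holds 1 core, 124 bases before its start, and the TCF7L1 and TCF7L2 windows shown hold none. The start in the LEF1 window lies 2631 bases inside the gene, counted from its annotated 5' end, whereas the starts in the TCF7L1 and TCF7L2 windows are the 5' ends of their genes. The share of G and C was 47.0% in the LEF1 window, 74.3% in that of TCF7L1 and 65.7% in that of TCF7L2. The median over 35116 windows of all genes was 58.7%. The 2 other TCF7L2 windows, at starts inside the gene, had 42.7% and 48.7%. The windows shown thus differ in the kind of start as well as in the gene. RefSeq windows were matched for 6 of the 9 measured genes, 9 windows in all, and the core was found in 3 of these windows, 1 of LEF1 and 2 of the 3 of TCF7L2. Over all genes 47.5% of windows held it on either strand. The longer motif CTTTGAT, searched on both strands and containing the core, was in none of the 9 windows and in 2.62% of all windows. These matches describe the letters and do not show binding.

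LEF1 was the 1 gene of the 9 that was past 2-fold under the level rule, and it was so in siB7-H3 and not in siPF. Its main probe set (221558_s_at) had an intensity of 869 in siPF, 416 in siB7-H3 and 963 in siCont. The siB7-H3 array was thus 2.31-fold below siCont, a log2 difference of -1.21, while siPF lay close to siCont, at -0.15. Set directly against each other, siPF was higher than siB7-H3 by 1.06 on the log2 scale. Both remaining LEF1 probe sets lay under the limit on all 3 arrays, at intensities that genes of unrelated organs also reach, and no direction was read from them. Probe set 221557_s_at gave 89.5 in siPF, 43.6 in siB7-H3 and 125 in siCont, with differences of -0.48 in siPF and -1.52 in siB7-H3. Probe set 210948_s_at gave 82.4, 76.9 and 128 on the same arrays, with -0.63 and -0.73. By sign alone all 3 LEF1 probe sets were below siCont on both knockdown arrays. In siB7-H3, 42 genes with 3 or more probe sets were at least 2-fold lower under the level rule, LEF1 included. Of these, 16 (38.1%) had all probe sets below siCont. Only the main LEF1 probe set was over the limit. The LEF1 difference therefore rests on 1 probe set. The names of all 3 end in _s_at, which marks probe sets that can bind several transcripts. With the median over the 3 probe sets in place of the main one, LEF1 was at -0.73 in siB7-H3, short of 2-fold, a value set by a probe set under the limit.

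In siB7-H3 against siCont 10480 genes passed the level rule, of which 170 (1.62%) were at least 2-fold higher or lower and 87 (0.83%) at least 2-fold lower. Of the 9 members 8 passed the rule, NKD1 being the exception, and LEF1 was the 1 gene past 2-fold. A difference as low as that of LEF1 or lower was seen in 39 of the 10480 genes, LEF1 included, and in 5 of the 2045 genes whose mean log2 intensity lay within 0.5 of that of LEF1. The SD of the difference across those 2045 genes was 0.33. The members were chosen with earlier results of these data known, so the place of LEF1 among genes is descriptive and no test. In siPF against siCont none of the 8 members that passed the rule was past 2-fold, beside 263 (2.51%) of 10497 genes. In siPF against siB7-H3 it was again LEF1 alone, higher in siPF, beside 191 (1.83%) of 10450 genes. A count of 1 gene in 8 is too small to be read against these shares.

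**Figure D1:**
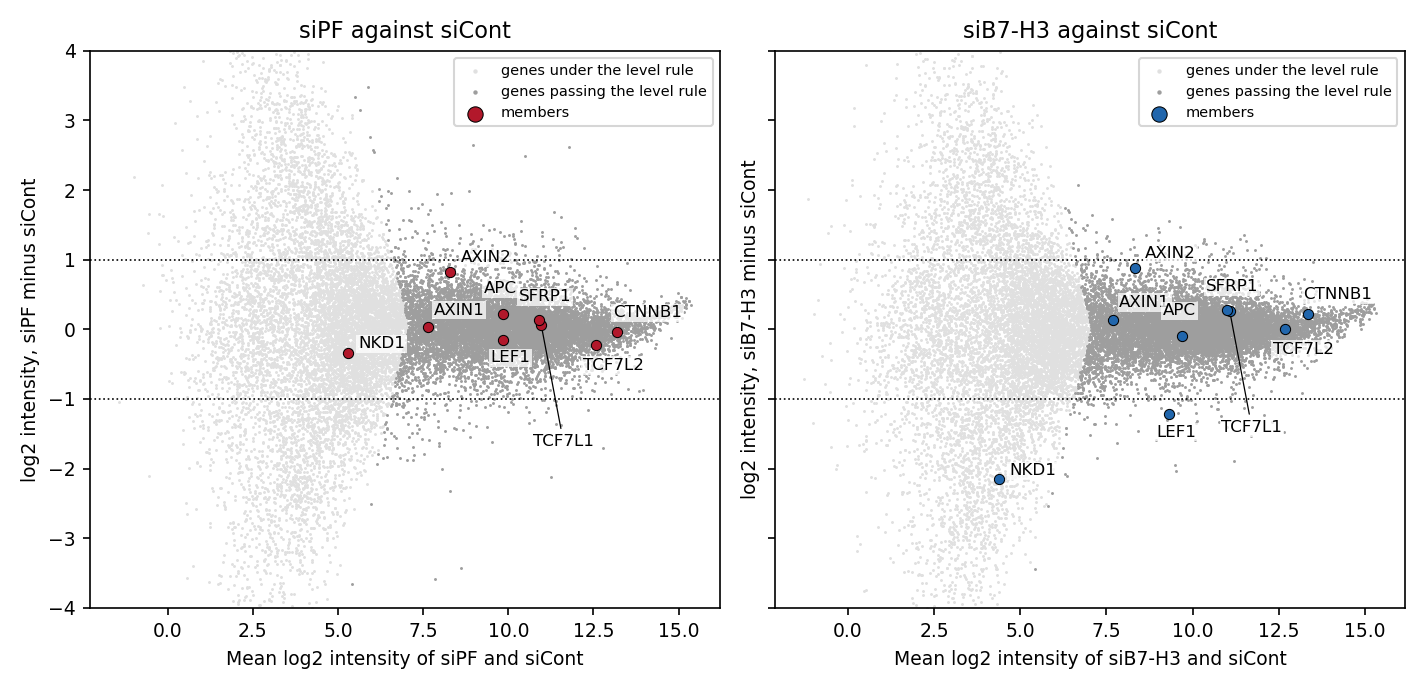
Log2 difference against the mean log2 intensity of the 2 arrays compared, for siPF against siCont (left) and siB7-H3 against siCont (right), 1 point per gene. Genes under the level rule are light grey, genes that passed it are dark grey, the 9 members are coloured and named, and dotted lines mark 2-fold. LEF1 lies below the lower line in siB7-H3 and inside both lines in siPF, AXIN2 lies just inside the upper line in both, and NKD1 is among the dim genes. The vertical axis ends at 4 either way and leaves out 104 genes on the left and 105 on the right.

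The genes whose pair of differences was most like that of LEF1 were sought among the 9845 genes at or over the limit on all 3 arrays, by the Euclidean distance between the log2 differences of siPF and of siB7-H3. The nearest was MRPL45, a protein of the mitochondrial ribosome, with 1584 in siPF, 728 in siB7-H3 and 1676 in siCont, at a distance of 0.067. RCHY1, a ubiquitin ligase, had 2364 in siPF, 1147 in siB7-H3 and 2548 in siCont, at a distance of 0.071. ANGEL2 had 2156 in siPF, 1130 in siB7-H3 and 2495 in siCont, at a distance of 0.093. All 3 genes had siPF within 0.21 of siCont on the log2 scale and siB7-H3 1.14 to 1.20 below it. This followed from how they were chosen and is no separate finding. The likeness rests on 3 arrays only.

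TCF7L1 and TCF7L2, the remaining measured LEF/TCF genes, were within 2-fold of siCont on both knockdown arrays at every probe set. TCF7L1, which acts mainly as a repressor in embryonic stem cells, has 1 probe set here, with 2046 in siPF, 2359 in siB7-H3 and 1968 in siCont. The differences were 0.06 in siPF and 0.26 in siB7-H3. TCF7L2, the family member that drives Wnt target genes in the gut epithelium, had 5607 in siPF, 6588 in siB7-H3 and 6552 in siCont at its main probe set (212761_at), with differences of -0.22 and 0.01. Over its 6 other probe sets the siPF differences spanned -0.41 to 0.21 and the siB7-H3 differences -0.43 to 0.25. The -0.43 came from 236094_at, which lay under the limit on all 3 arrays. The lowest probe set over the limit was at -0.28 in siB7-H3. The 5 brightest of its 7 probe sets were all below siCont in siPF, by 0.19 to 0.41 on the log2 scale, and the 2 dimmest were above it. The lowest of them was 216511_s_at, with 1090 in siPF, 1190 in siB7-H3 and 1448 in siCont. Of the 3 measured LEF/TCF genes, LEF1 was thus the furthest from siCont in siB7-H3, and TCF7L2 in siPF, by main probe sets. For genes within 0.5 of the mean level of TCF7L2, the SD of the difference across genes was 0.26 in siPF, so the TCF7L2 values lie inside that spread at its main probe set.

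**Figure D2:**
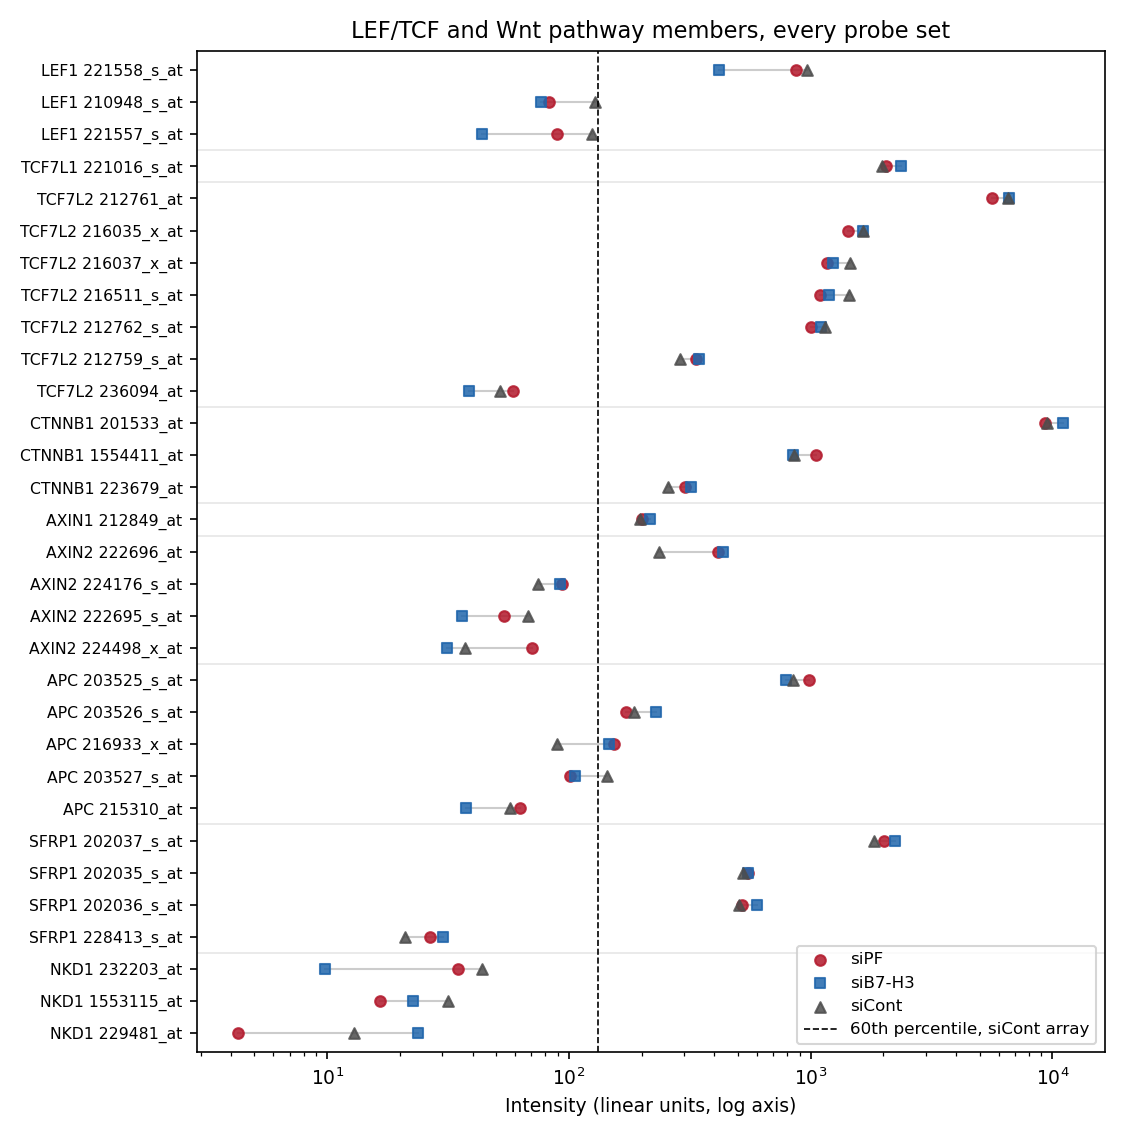
Intensity on a log axis of each of the 31 probe sets of the 9 measured genes, with 1 symbol per array (siPF circles, siB7-H3 squares, siCont triangles) and a line joining the lowest and highest array. Probe sets are grouped by gene and ordered by mean level, and the dashed line marks the 60th percentile of the siCont array. The siB7-H3 square lies left of the other symbols in the first row of LEF1, the 1 LEF1 row right of the dashed line, and both knockdown symbols lie right of siCont in the first row of AXIN2.

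Beta-catenin, the partner that LEF/TCF proteins need for activation, was measured by 3 probe sets of CTNNB1, all over the limit on every array. The main one had 9293 in siPF, 11118 in siB7-H3 and 9534 in siCont, with differences of -0.04 and 0.22. The other 2 probe sets gave 0.31 and 0.24 in siPF and -0.01 and 0.32 in siB7-H3. All CTNNB1 values were within 0.32 of siCont, and the directions were mixed. The arrays read RNA only, and the amount of beta-catenin protein, on which the pathway acts, was not measured here.

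Of the destruction complex, AXIN2 was higher on both knockdown arrays at its main probe set but short of 2-fold, whereas AXIN1 and APC were near siCont. AXIN2 had 415 in siPF, 433 in siB7-H3 and 235 in siCont (222696_at), which is 1.76-fold and 1.84-fold above siCont and a log2 difference of 0.82 and 0.88. A difference at least as high was seen in 263 of the 10497 genes that passed the rule in siPF and in 130 of the 10480 in siB7-H3. Among the 1592 genes of like level, 44 were as high in siPF and 15 in siB7-H3, AXIN2 included. These places among genes are descriptive, as for LEF1. Both differences come from the same siCont array, and siPF and siB7-H3 differed from each other by only -0.06. The 3 other AXIN2 probe sets lay under the limit and did not share a sign. Probe set 224176_s_at gave 93.7 in siPF, 91.9 in siB7-H3 and 74.3 in siCont, 222695_s_at gave 53.8, 36.03 and 67.9, and 224498_x_at gave 70.3, 31.3 and 37.02. By sign alone, 2 of the 4 AXIN2 probe sets were above siCont and 2 below in siB7-H3, and 3 above and 1 below in siPF. As for LEF1, no direction was read from those under the limit. The median over the 4 probe sets was 0.19 in siPF and -0.30 in siB7-H3, so in siB7-H3 the direction of AXIN2 rests on its main probe set.
AXIN1, the scaffold present in most cells, had 201 in siPF, 217 in siB7-H3 and 197 in siCont at its 1 probe set. It differed by 0.03 and 0.14. Its intensities lay below the highest of the genes of unrelated organs on each array. The spread of the difference across genes of its level was 0.49 (SD) in siPF and 0.41 in siB7-H3. APC, the tumour suppressor that is lost in most colorectal cancers, had 987 in siPF, 792 in siB7-H3 and 847 in siCont at its main probe set, with 0.22 and -0.10. Its 4 other probe sets spanned -0.51 to 0.79 in siPF and -0.60 to 0.72 in siB7-H3. The highest of these values came from 216933_x_at, with 154 in siPF, 147 in siB7-H3 and 89.02 in siCont. The lowest in siPF came from 203527_s_at, with 101 in siPF, 106 in siB7-H3 and 144 in siCont. The lowest in siB7-H3 came from 215310_at, under the limit on all 3 arrays, and the next was -0.44 at 203527_s_at. Probe sets of APC near the limit thus lay on both sides of siCont.

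**Figure D3:**
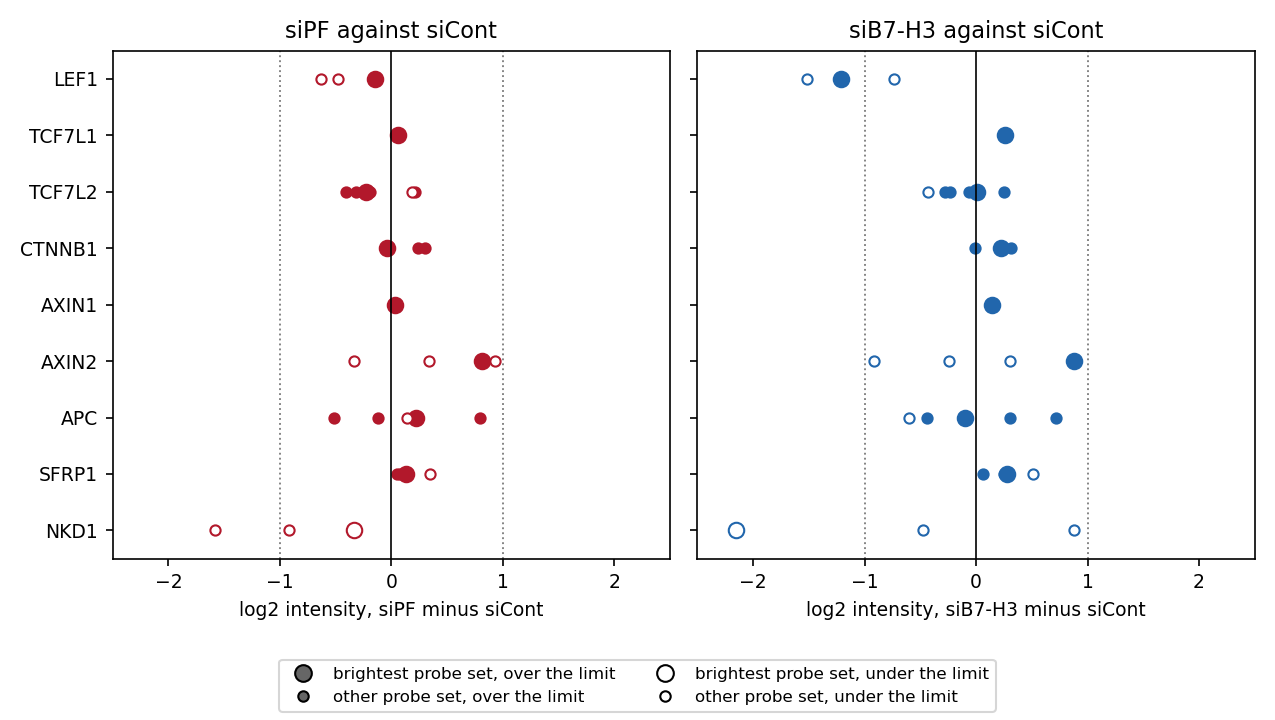
Log2 difference of each of the 31 probe sets, for siPF against siCont (left) and siB7-H3 against siCont (right), with genes in rows. Large symbols are the probe set that stands for the gene, filled symbols have at least 1 of the 2 arrays over the limit, and dotted lines mark 2-fold. The filled symbol past the lower line is LEF1 in siB7-H3, and the open symbols of NKD1 spread from -2.16 to 0.88 there.

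The inhibitors SFRP1 and NKD1 were unlike each other in signal. SFRP1, a secreted protein that binds Wnt ligands outside the cell, had 2014 in siPF, 2226 in siB7-H3 and 1837 in siCont at its main probe set, with differences of 0.13 and 0.28. The 3 SFRP1 probe sets over the limit were above the shared siCont array on both knockdown arrays. They lay 0.05 to 0.13 above it in siPF and 0.06 to 0.28 in siB7-H3. The remaining probe set, with at most 30.05, gave 0.34 and 0.51, and no direction was read from it. The SD of the difference among genes of the level of SFRP1 was 0.31 in siPF and 0.29 in siB7-H3. NKD1, which binds Dishevelled and dampens the signal inside the cell, stayed under the limit at all 3 probe sets on every array. The intensities were 34.7 in siPF, 9.82 in siB7-H3 and 43.8 in siCont at the first probe set, 16.6, 22.7 and 31.5 at the second, and 4.30, 23.7 and 12.9 at the third. The siB7-H3 differences were -2.16, -0.47 and 0.88, and the siPF differences -0.34, -0.92 and -1.58. The lowest array was siB7-H3 at 1 of these probe sets and siPF at the other two. The genes of unrelated organs had a 95th percentile of 130 in siPF, 189 in siB7-H3 and 137 in siCont, well over these intensities, so no difference of NKD1 can be read.

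A list of 125 other Wnt pathway genes, written from general knowledge and ordered by role, was examined beside the members, and 119 of them were measured by a probe set named with that gene alone. Under the level rule 77 passed in each comparison with siCont. In siPF 1 of them was past 2-fold higher and none lower, and in siB7-H3 1 was higher and 1 lower. The median difference of the genes that passed was 0.08 in siPF and 0.09 in siB7-H3, beside 0.02 over all genes that passed in each. Over all genes that passed, 2.51% in siPF and 1.62% in siB7-H3 were past 2-fold in either direction.
Of 17 measured Wnt ligands, 4 passed the rule. WNT5A, a ligand of beta-catenin-independent signalling, had 1623 in siPF, 1890 in siB7-H3 and 1618 in siCont. WNT9A had 853 in siPF, 249 in siB7-H3 and 472 in siCont, so that the knockdown arrays lay on either side of siCont, at 0.85 and -0.92. Set directly against each other they differed by 1.77. The dimmer probe set of WNT9A gave 113, 21.5 and 6.70, all under the limit, and with the median over both probe sets WNT9A was at 2.46 in siPF and 0.38 in siB7-H3. WNT7B, the 1 list gene counted as lower in siB7-H3, had 98.6 in siPF, 88.1 in siB7-H3 and 177 in siCont, with -0.85 and -1.01. It passed the level rule through the siCont array alone, and both knockdown values lay under their limits. With values under the limit raised to it, the siB7-H3 difference was -0.40 and no longer past 2-fold. Its probe set can bind several transcripts, and the other one was at most 9.38 on any array.
Of 15 measured receptors, 11 passed the rule, and in siB7-H3 all 11 were above siCont, by 0.02 to 0.69 (median 0.18). In siPF this held for 8 of the 11 (median 0.25). Over all genes that passed, 5510 of 10497 were above siCont in siPF and 5530 of 10480 in siB7-H3. LRP6, the co-receptor, had 2285 in siPF, 2526 in siB7-H3 and 1570 in siCont, with 0.54 and 0.69, and its 2 dimmer probe sets gave 0.07 and -0.04 in siPF and 0.52 and 0.45 in siB7-H3. RYK, a receptor without an active kinase, had 3859 in siPF, 4233 in siB7-H3 and 3140 in siCont, and its 3 probe sets lay between 0.30 and 0.52 above siCont on both arrays. FZD2 had 2465 in siPF, 1708 in siB7-H3 and 1260 in siCont, with 0.97 in siPF, close to 2-fold, and was named after its values were seen. Both differences of each receptor rest on the same siCont array.
Of the secretion and R-spondin genes 3 of 11 passed the rule, WLS, the carrier that brings Wnt ligands to the cell surface, LGR4, an R-spondin receptor, and ZNRF3, and all 3 were above siCont on both arrays. WLS had 4268 in siPF, 4439 in siB7-H3 and 3614 in siCont, with 0.24 and 0.30, but its other 2 probe sets lay between -0.13 and 0.01. LGR4 had 1293 in siPF, 1006 in siB7-H3 and 964 in siCont. Of 14 secreted inhibitors and Kremen receptors 5 passed. DKK1, which blocks LRP5 and LRP6, had 1393 in siPF, 2095 in siB7-H3 and 1999.7 in siCont, a difference of -0.52 in siPF and 0.07 in siB7-H3. KREMEN1, a receptor of DKK1, had 976, 1188 and 1151 on the same arrays.
Of 21 Dishevelled and destruction complex genes 18 passed the rule. None was past 2-fold by main probe set, the median being 0.10 for siPF and 0.09 for siB7-H3. DVL1, a Dishevelled gene named after its values were seen, was the lowest of the 18 in both comparisons, at -0.78 in each. It had 399 in siPF, 398 in siB7-H3 and 686 in siCont, so both differences rest on the same siCont value. CSNK1A1, the kinase that primes beta-catenin for degradation, had 6673 in siPF, 6688 in siB7-H3 and 6295 in siCont, and TNKS2, a tankyrase that turns over the AXIN proteins, had 3775, 4202 and 4208. Of 19 nuclear cofactors 18 passed and none was past 2-fold, the median being -0.05 for siPF and -0.0017 for siB7-H3. CTBP1, a corepressor, had 5677 in siPF, 5256 in siB7-H3 and 5780 in siCont, and the histone deacetylase HDAC1 had 3952, 4152 and 4175. The cofactors spanned -0.82 to 0.57 in siPF and -0.78 to 0.57 in siB7-H3. Both lower ends were BCL9L, with 120 in siPF, 123 in siB7-H3 and 212 in siCont. It passed the rule through the siCont array alone. The next lowest were BCL9 at -0.77 in siPF and NLK at -0.50 in siB7-H3.
Of 22 measured target genes 18 passed the rule in each comparison with siCont. In siPF 9 of them were above and 9 below siCont, and in siB7-H3 11 above and 7 below. TNFRSF19, a receptor of the TNF receptor superfamily, had 1402 in siPF, 378 in siB7-H3 and 531 in siCont, 2.64-fold above siCont in siPF and -0.49 on the log2 scale in siB7-H3. Its 2 other probe sets did not follow in siPF, at -0.05 and -0.28. MSX1, a homeobox factor that holds back muscle differentiation, had 1005 in siPF, 1259 in siB7-H3 and 628 in siCont, at 0.68 in siPF and 2.01-fold above siCont in siB7-H3, and its other probe set gave -0.01 and 0.23. JUN had 16147 in siPF, 18559 in siB7-H3 and 18121 in siCont at its main probe set, and CD44, a hyaluronan receptor, had 4240, 4774 and 5065. The target genes thus lay on both sides of siCont on either array.

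**Figure D4:**
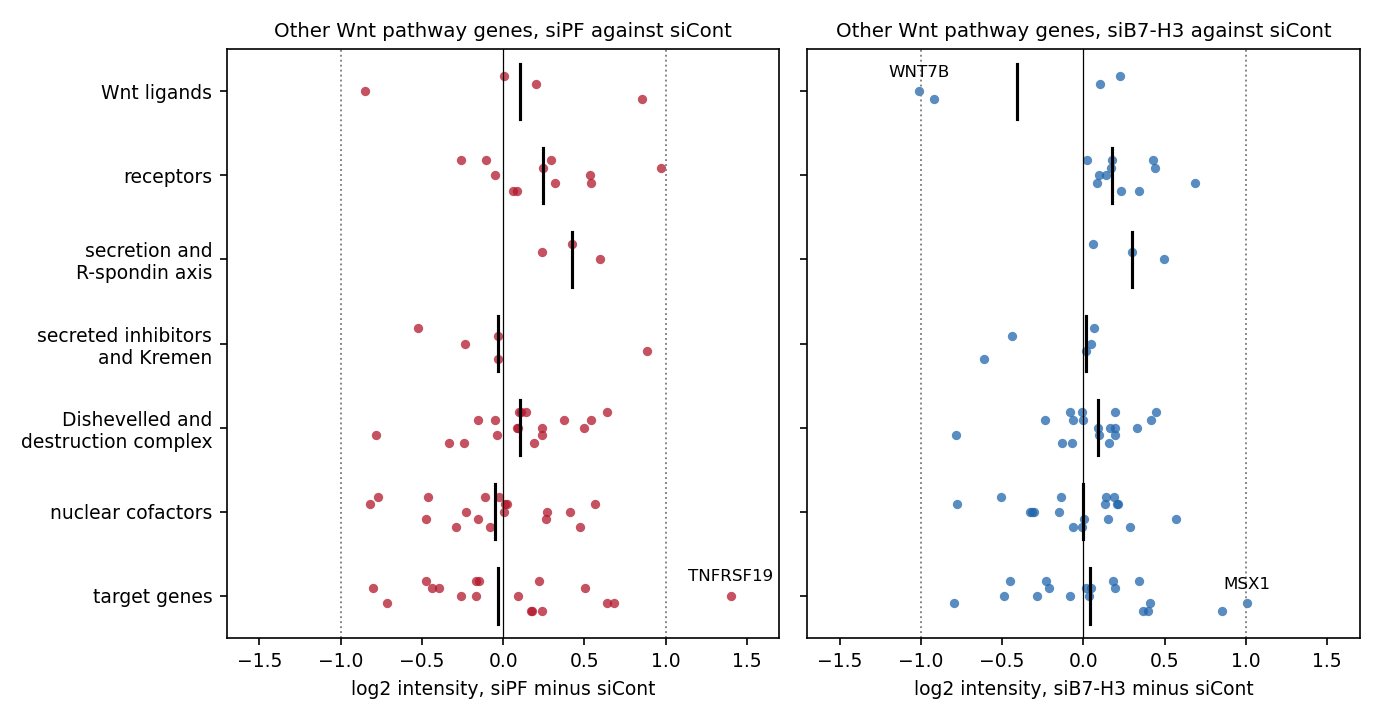
Log2 difference of the 77 other Wnt pathway genes that passed the level rule, for siPF against siCont (left) and siB7-H3 against siCont (right), 1 point per gene and 1 row per role. Black bars are the median of a role, dotted lines mark 2-fold, and points are spread vertically within a row only to keep them apart. Genes past 2-fold are named, TNFRSF19 in siPF and WNT7B and MSX1 in siB7-H3, and all 11 receptors lie right of 0 in siB7-H3, as do 5530 of the 10480 genes that passed.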

How the data were processed

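RNA of Rh-30 cells, 1 culture per condition, was hybridized to 3 arrays. The deposited values are linear intensities that the authors obtained in Expression Console 1.4.1 (Affymetrix); the summarization method is not given in the sources used here. Samples were grouped by their titles.
Intensities were taken to log2 with no floor or pseudocount. Gene names came from the platform table (symbols updated by gene ID), leaving out 62 controls, 1801 probe sets with several genes and 11721 with none. Percentiles exclude the controls. With 1 array per condition there was no test, and that number limits precision. Past 2-fold means 1 or more log2 units either way.
The members and lists were chosen with earlier results of these data known. Of the other Wnt genes, those past 2-fold and the 2 with the highest mean level in each role were named. Alternatives were the median over probe sets, leaving out probe sets ending in _x_at or _s_at, centring, quantile normalization, a floor, a pseudocount of 16, other level limits and 1.5-fold. Python 3.11.15, numpy 2.4.6, pandas 2.3.3 and matplotlib 3.10.9 were used. Scripts were tested on simulated data.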

Additional observations from a re-analysis of the deposited data

How the results depend on the processing

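Values of 9 members in 2 comparisons were recomputed under 6 alternatives. Of 102 values, 90 stayed within 0.25 (log2) of the value given, a width chosen here for want of replicates. Many of the 90 could not move. The floor leaves any main probe set over the limit on all 3 arrays as it was, and 16 of 18 stayed. Leaving out _x_at and _s_at probe sets keeps any main probe set with another ending, and 11 of 12 stayed. The count of 90 is therefore no measure of robustness. With the median over probe sets 8 of 18 moved further, and TCF7L1 and AXIN1, with 1 probe set each, could not move. Centring each array on its median and quantile normalization moved none by more than 0.25. The arrays already shared a scale before either step. LEF1 in siB7-H3 was then -1.21 and -1.22. It was -1.18 with a pseudocount of 16. The floor at the 60th percentile had to leave it at -1.21, since its main probe set was over the limit on all 3 arrays. With the median over probe sets LEF1 was -0.73 in siB7-H3 and -0.51 in siPF, and AXIN2 was -0.30 in siB7-H3, the opposite sign, and 0.19 in siPF. The count of members past 2-fold in siB7-H3 was then 0. It was also 0 without the _x_at and _s_at probe sets, by construction, since LEF1 has no others. It was 2 with the limit at the 40th percentile or with no limit, which added NKD1 (8.75% and 18.2% of all genes that passed), and 2 at 1.5-fold, which added AXIN2 (8.16% of all). In siPF it was 1 at 1.5-fold, AXIN2 (10.4% of all), and 0 under all other alternatives.
Of the other Wnt genes, the count past 2-fold at the 40th percentile was 7 for siPF and 10 for siB7-H3 (9.61% and 8.75% of all genes), 16 and 21 with no limit (19.1% and 18.2%), and 14 and 9 at 1.5-fold (10.4% and 8.16%). In siB7-H3 it was 0 with the median over probe sets, without _x_at and _s_at probe sets and with the pseudocount, and 1 with the floor or the limit at the 75th percentile. With the median over probe sets TNFRSF19 turned to -0.053 in siPF, where WNT9A (2.46) was then the 1 gene counted, and WNT9A turned to 0.38 in siB7-H3. WNT7B turned to 0.35 in siB7-H3 without _x_at and _s_at probe sets. The causes of these changes were not tested. No paired analysis was possible because each condition has 1 array. With 1 array per condition, the spread between arrays of 1 condition is unknown.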

Other observations

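Many dim Wnt pathway genes showed large differences that the level rule kept out. RSPO2, an R-spondin, had 25.8 in siPF, 20.1 in siB7-H3 and 3.47 in siCont, and SFRP5 had 52.5, 38.9 and 7.87 on the same arrays. WNT2 had 21.5 in siPF, 7.07 in siB7-H3 and 72.7 in siCont, and DKK2 had 26.9, 35.1 and 126. LGR5, a stem cell marker and Wnt target, had 34.8 in siPF, 2.86 in siB7-H3 and 5.64 in siCont. With no level rule 19.1% of all genes were at least 2-fold from siCont in siPF and 18.2% in siB7-H3, so such differences were common among dim genes of any kind. These genes were chosen after their values were seen.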
